A study of Rattus norvegicus with 6 samples.

Results

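The genes described here encode the enzymes that hydroxylate and cross-link collagen, with the chaperone that accompanies collagen through the endoplasmic reticulum. They are the prolyl 4-hydroxylase subunits P4ha1, P4ha2 and P4ha3, the lysyl hydroxylases Plod1, Plod2 and Plod3, the chaperone Serpinh1 (HSP47), and the lysyl oxidases Lox, Loxl1 and Loxl2. They were taken as every probe set of the array annotated with 1 of these 10 symbols and no other. This gave 14 probe sets for 10 genes, of 14217 genes named on the array. Where a gene had more than 1, the probe set brightest on average across the 6 arrays stands for it, and the other 4 probe sets are given beside it. All 10 genes passed the filter on dim signals.

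The study set soft tissue from around a dental implant against mucosa from a healed tooth socket. All rats were male Sprague Dawley, a laboratory strain with no engineered allele named in the labels, and were 4 weeks old at surgery. In every animal the first molars of the upper jaw were extracted left and right. The peri-implant soft tissue group (3 arrays) had a titanium alloy implant in the left socket, and the oral mucosal tissue group (3 arrays) came from the right socket, which healed without one. Both were collected 4 weeks after surgery, so tissue and side of the mouth cannot be told apart. Nothing in the labels ties the arrays of a group to different rats. The p-values therefore refer to the variation among these samples, and that variation may be technical.

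Collagen chains are modified in the endoplasmic reticulum before they fold. Prolyl 4-hydroxylases convert proline to hydroxyproline, which stabilises the triple helix, and lysyl hydroxylases convert lysine to hydroxylysine, which later takes part in cross-links and carries sugars. Both enzyme families need iron, 2-oxoglutarate, oxygen and ascorbate. Serpinh1 binds the folded helix and escorts it toward the Golgi. Outside the cell the copper-dependent lysyl oxidases oxidise lysine and hydroxylysine side chains, which then form covalent cross-links between collagen molecules, and Lox and Loxl1 also act on elastin. In gingiva and oral mucosa these genes are known mainly from fibroblasts of the connective tissue.

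The lysyl oxidases did not move as a family. Lox was 1.49-fold and Loxl1 1.55-fold higher in peri-implant tissue, whereas Loxl2 was 3.28-fold lower. Among the enzymes that act inside the cell, P4ha1 was 1.36-fold and P4ha2 1.57-fold lower. No hydroxylase or chaperone gene was called higher. In the linear model fit with limma, 2 of the 10 genes were higher, 3 were lower and 5 did not pass an adjusted p of 0.05. Over all 10585 genes tested, 15.2% were higher and 11.0% lower, 26.1% in all. The call for Loxl1 was lost without any single array other than mucosal array 3, which left 1 gene higher, and without mucosal array 2 there were 5 lower. The groups did not overlap for 8 of the 10 genes, against 41.9% of all genes tested. The median difference of the 10 genes was -0.32 on the log2 scale, against 0.03 for all genes tested. In bulk tissue, fewer cells of a type and less RNA per cell cannot be told apart.

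**Figure D1:**
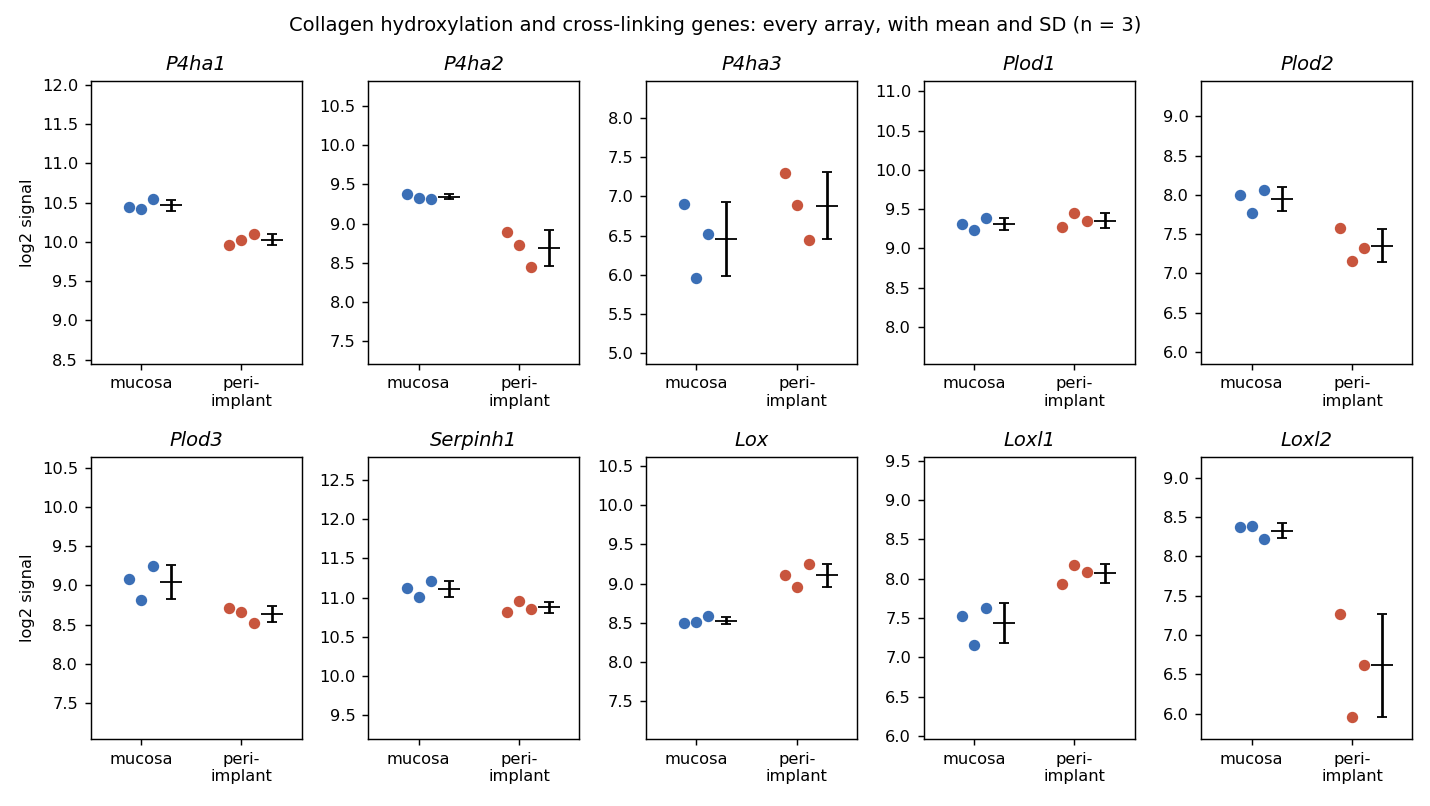
Each panel plots the log2 signal (vertical axis) of 1 gene on the 3 mucosal and the 3 peri-implant arrays, with the group mean and SD beside the points; every panel spans the same number of log2 units. P4ha1, P4ha2 and Loxl2 lie lower on all peri-implant arrays, as do Plod2, Plod3 and Serpinh1, which were not called. Lox and Loxl1 lie higher, and Plod1 and P4ha3 overlap between the groups.

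Hydroxylase genes are known targets of the hypoxia-inducible factors, which bind the core letters ACGTG or GCGTG. The regions around the start sites of P4ha1 and P4ha2, which were called lower, are therefore shown first. Plod2, whose difference missed the threshold, is shown because its window holds the most matches after P4ha2. Loxl1, a lysyl oxidase called higher, is shown beside them. Chosen by call and by matches, these windows cannot show whether matches go with direction. Each sequence runs 5′ to 3′ on the gene's strand from 250 bases before to 50 bases after the RefSeq start in the rat build GRCr8, and capitals mark ACGTG or GCGTG on either strand, and the heat shock element letters GAANNTTC, which nowhere overlap it here. P4ha1 is at chr20:27844796-27845095 (plus strand), P4ha2 at chr10:38743644-38743943 (plus strand), Plod2 at chr8:101964068-101964367 (plus strand) and Loxl1 at chr8:67612175-67612474 (minus strand).
P4ha1: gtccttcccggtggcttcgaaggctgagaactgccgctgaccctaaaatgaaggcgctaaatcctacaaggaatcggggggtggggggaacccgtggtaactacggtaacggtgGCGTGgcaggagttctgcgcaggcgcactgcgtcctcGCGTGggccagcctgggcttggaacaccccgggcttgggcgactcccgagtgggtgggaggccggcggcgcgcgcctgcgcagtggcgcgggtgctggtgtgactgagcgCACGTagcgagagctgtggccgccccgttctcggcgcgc
P4ha2: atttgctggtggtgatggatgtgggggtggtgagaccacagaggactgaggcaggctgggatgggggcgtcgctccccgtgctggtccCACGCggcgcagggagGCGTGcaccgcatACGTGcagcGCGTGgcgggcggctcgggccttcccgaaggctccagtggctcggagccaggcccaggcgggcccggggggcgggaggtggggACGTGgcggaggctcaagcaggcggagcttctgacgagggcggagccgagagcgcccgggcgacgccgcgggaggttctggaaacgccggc
Plod2: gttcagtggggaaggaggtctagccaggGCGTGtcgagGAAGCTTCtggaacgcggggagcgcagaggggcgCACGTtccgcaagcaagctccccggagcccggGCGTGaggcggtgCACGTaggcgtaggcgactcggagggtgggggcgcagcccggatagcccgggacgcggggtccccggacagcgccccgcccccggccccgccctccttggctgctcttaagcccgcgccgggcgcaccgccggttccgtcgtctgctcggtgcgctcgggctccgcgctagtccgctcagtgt
Loxl1: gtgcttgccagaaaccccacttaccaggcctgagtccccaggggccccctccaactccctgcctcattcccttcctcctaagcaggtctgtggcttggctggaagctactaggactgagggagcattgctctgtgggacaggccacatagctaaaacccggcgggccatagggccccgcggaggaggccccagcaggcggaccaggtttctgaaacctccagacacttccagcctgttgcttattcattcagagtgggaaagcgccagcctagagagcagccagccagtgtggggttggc

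P4ha2 holds 5 matches to the hypoxia core, Plod2 holds 4 and P4ha1 holds 3. Plod3 has 2 and Plod1 has 1, and no match was found in Loxl1, P4ha3 or Serpinh1. In both P4ha2 and Plod2 a match begins 146 bases before the start and the next begins 133 bases before it. Lox and Loxl2 had no sequence in the RefSeq table. Of the 8 genes with a sequence there, 5 (62.5%) hold the core, against 41.6% of 33469 promoters of the same length. These 8 promoters are rich in G and C, from 60.7% in Serpinh1 to 73.7% in Plod2, against a median of 51.7% over all promoters, and the core contains the letters CG. The heat shock element was found in Serpinh1, Plod1 and Plod2, 37.5% of the 8 against 8.59% of all promoters. In Serpinh1 it reads GAAGTTTC and begins 30 bases before the start. The letters of the AP-1 motif, TGANTCA, and of a TATA box, TATAAA, were searched on both strands in the same way and occurred in 0 of the 8, against 7.33% and 14.2% of all promoters. A match in this window is a description of the letters and not a binding site.

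P4ha1 encodes the most widely used catalytic α subunit of prolyl 4-hydroxylase. Its log2 signal was 10.45, 10.41 and 10.55 on the mucosal arrays and 9.95, 10.03 and 10.10 on the peri-implant arrays. All peri-implant arrays lay below all mucosal arrays, with a gap of 0.31 between the groups. P4ha1 fell by 0.44 (SE 0.08, limma adjusted p = 0.00196), and this held under all 15 alternatives. P4ha2, the α subunit of the second isoenzyme, was at 9.38, 9.32 and 9.32 in mucosa and at 8.89, 8.73 and 8.45 in peri-implant tissue. Its mucosal values spanned a narrow range (SD 0.03), and the peri-implant values were spread more widely (SD 0.23) below them. P4ha2 fell by 0.65 (SE 0.13, limma adjusted p = 0.00296). Its other probe set was dim, with 4 of 6 arrays below 5.90 on the log2 scale, the 40th percentile of all single values. That probe set overlapped between groups and was not tested. With the mean of both probe sets, the difference of P4ha2 was 0.02 (limma adjusted p = 0.977).

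P4ha3 encodes the least abundant α subunit in most tissues. Its signal was 6.90, 5.96 and 6.51 in mucosa and 7.30, 6.89 and 6.45 in peri-implant tissue. The groups overlapped, and the difference of 0.42 had a 95% interval from -0.32 to 1.16 (limma adjusted p = 0.432). That interval holds both a rise of 2-fold and a small fall. P4hb, protein disulfide isomerase, is the β subunit that all 3 isoenzymes share. It stood at 14.14 ± 0.10 against 13.94 ± 0.08 (SD, n = 3 each; limma adjusted p = 0.124), a difference of 0.20. Under quantile normalisation it was higher by 0.32 and passed (limma adjusted p = 2.72e-04).

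Plod1 encodes the lysyl hydroxylase that acts on lysines within the collagen helix. It was at 9.31, 9.23 and 9.38 in mucosa and at 9.27, 9.45 and 9.35 in peri-implant tissue. The groups overlapped, and the difference of 0.05 had a 95% interval from -0.18 to 0.28 (limma adjusted p = 0.799). Plod2 hydroxylates lysines of the telopeptides, the short ends outside the helix, and so sets the type of cross-link that lysyl oxidases can form. Its signal was 8.00, 7.77 and 8.06 in mucosa against 7.58, 7.16 and 7.33 in peri-implant tissue. The groups did not overlap, with a gap of 0.20. The difference of -0.59 (SE 0.20, 95% interval -1.03 to -0.15) missed the threshold (limma adjusted p = 0.0568), and it passed in 4 of 15 alternatives, with adjusted p-values of 0.0318 to 0.185 over these.

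Plod3 encodes a lysyl hydroxylase that also adds sugars to hydroxylysine. It stood at 9.08, 8.81 and 9.24 in mucosa and at 8.72, 8.66 and 8.52 in peri-implant tissue. Its groups were separated by 0.10, with mucosal array 2 the closest to the peri-implant arrays. The difference of -0.41 (SE 0.14, 95% interval -0.71 to -0.11) was just outside the threshold (limma adjusted p = 0.0527). It passed in 2 of 15 alternatives. These were without mucosal array 2 (-0.53, limma adjusted p = 0.0172) and under quantile normalisation (-0.46, limma adjusted p = 0.0363).

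Serpinh1 was at 11.12, 11.01 and 11.22 in mucosa and at 10.82, 10.96 and 10.85 in peri-implant tissue. The gap between the groups was 0.05. The difference of -0.24 (SE 0.08, 95% interval -0.41 to -0.06) was likewise outside the threshold (limma adjusted p = 0.0505). It passed in 4 of 15 alternatives, with limma adjusted p-values of 0.0264 to 0.649 over all 15. Without mucosal array 2 it was -0.29 and passed (limma adjusted p = 0.0264). The probe set used for Serpinh1 carries the manufacturer's suffix s, which marks probes shared by more than 1 transcript. Its other probe set was dim on 5 of 6 arrays and was not tested. Plod2, Plod3 and Serpinh1 thus shared a direction with P4ha1 and P4ha2, with intervals below 0 before adjustment over all probe sets.

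**Figure D2:**
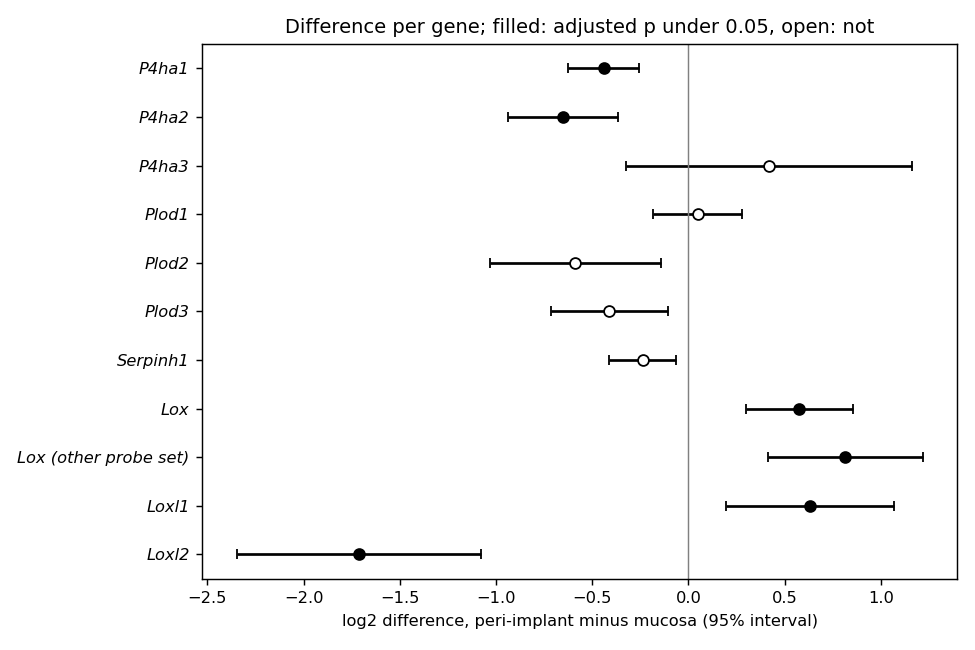
The horizontal axis is the log2 difference, peri-implant minus mucosa, for each tested probe set of the 10 genes, with its 95% interval from the limma fit; filled points passed an adjusted p of 0.05. Loxl2 has the largest fall (-1.71), the probe sets of Lox and Loxl1 lie above 0, and the intervals of Plod1 and P4ha3 span 0.

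Lox encodes the founding member of the lysyl oxidases, which is secreted as a proenzyme and cleaved by Bmp1. Its signal was 8.49, 8.51 and 8.58 in mucosa and 9.10, 8.96 and 9.25 in peri-implant tissue. Every peri-implant array was above every mucosal array. Lox rose by 0.58 (SE 0.13, limma adjusted p = 0.00541), and the call was kept under all 15 alternatives, with differences of 0.50 to 0.70. The other probe set of Lox gave 8.03, 8.18 and 8.76 in mucosa and 9.22, 8.91 and 9.29 in peri-implant tissue, a rise of 0.82 (SE 0.19, limma adjusted p = 0.00640). Both probe sets of Lox were therefore higher, without overlap of the groups.

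Loxl1 encodes a lysyl oxidase known above all for its part in elastic fibre assembly. It stood at 7.53, 7.16 and 7.63 in mucosa and at 7.94, 8.18 and 8.09 in peri-implant tissue. The groups were separated by 0.31. Loxl1 rose by 0.63 (SE 0.20, limma adjusted p = 0.0384), but this call was lost in 9 of 15 alternatives. It was lost without peri-implant array 1, 2 or 3 (limma adjusted p = 0.0593, 0.142 and 0.0991) and without mucosal array 1 or 2 (limma adjusted p = 0.0604 and 0.109). It was also lost with the replicate number as a block (limma adjusted p = 0.0537). Over these alternatives its difference stayed between 0.49 and 0.73.

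Loxl2, which acts on basement membrane and fibrillar collagen, showed the only difference of more than 2-fold among the 10 genes. It was at 8.37, 8.39 and 8.22 in mucosa and at 7.26, 5.96 and 6.62 in peri-implant tissue. The peri-implant arrays were all lower and also more spread (SD 0.65 against 0.10). Peri-implant array 2, at 5.96, lay just above the dim level of 5.90, so the size of the fall is uncertain. Loxl2 fell by 1.71 (SE 0.29, limma adjusted p = 8.67e-04). Its other probe set was dim on all 6 arrays and overlapped between groups. When both probe sets were averaged, the fall was 0.99 and the call was lost (limma adjusted p = 0.106). Loxl3, another lysyl oxidase, was too dim to be tested, at 5.73 ± 0.45 in peri-implant tissue and 5.34 ± 1.65 in mucosa (SD, n = 3 each).

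Whether paralogs moved unequally was asked within each array, where the scale of the array cancels. The log2 signal of 1 paralog was subtracted from that of another, and the 9 such pairs were compared between groups with a two-sided exact permutation test, whose smallest possible p with 3 arrays against 3 is 0.1. No pair could therefore pass 0.05. The groups did not overlap for 5 of the 9 pairs, against 43.2% of all pairs of genes tested. Lox minus Loxl2 was 0.12, 0.12 and 0.37 in mucosa and 1.84, 3.00 and 2.63 in peri-implant tissue, a shift of 2.29 (exact permutation p = 0.1, adjusted 0.18). Loxl1 minus Loxl2 shifted by 2.34 with the same p-values, and Lox minus Loxl1 by -0.06 (exact permutation p = 1). The distance between Lox and Loxl1 differed by less than the spread of the arrays, and both moved apart from Loxl2.

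Plod1 minus Plod2 shifted by 0.64 and Plod1 minus Plod3 by 0.46, both without overlap (exact permutation p = 0.1, adjusted 0.18). Plod2 minus Plod3 shifted by -0.18 with overlapping groups (exact permutation p = 0.2). Within the prolyl hydroxylases, P4ha2 minus P4ha3 shifted by -1.07 without overlap (exact permutation p = 0.1, adjusted 0.18). P4ha1 minus P4ha2 shifted by 0.21 and P4ha1 minus P4ha3 by -0.86, and the groups of both pairs overlapped.

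**Figure D3:**
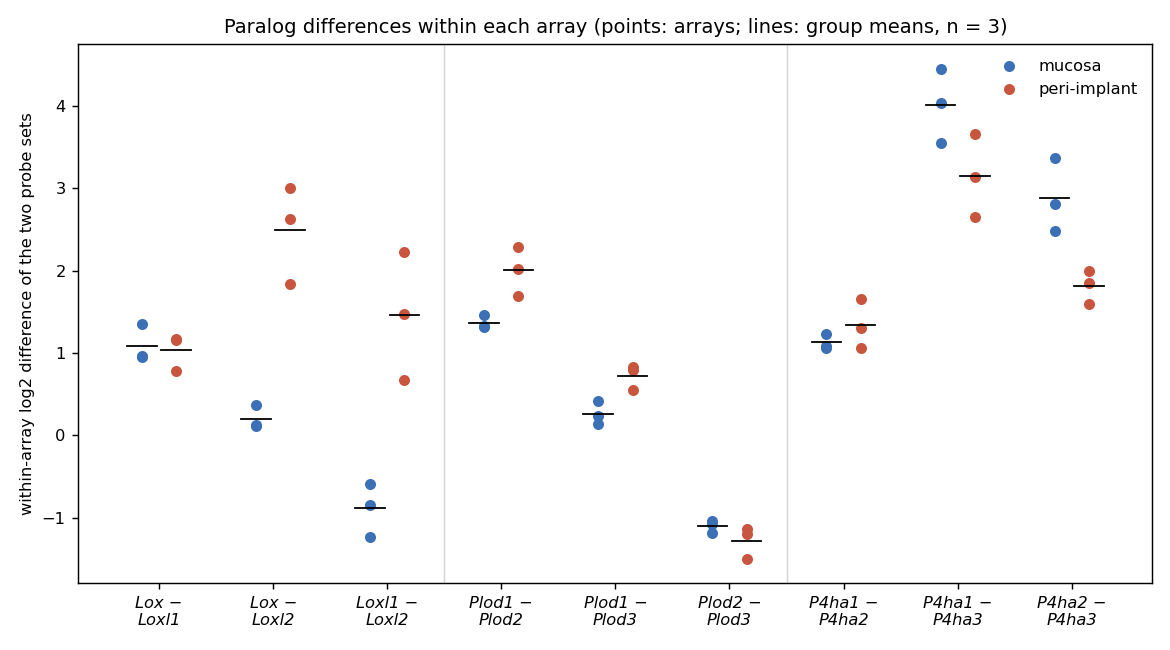
For each pair of paralogs, the vertical axis gives the log2 signal of the first minus that of the second within an array, with points for the 3 arrays of each group and lines for group means. Lox and Loxl1 keep their distance from each other, whereas each separates from Loxl2 by more than 2 log2 units between the groups.

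Most of the collagen chains on which these enzymes act were lower. Of 13 tested substrate chains 10 were lower, 0 were higher (limma; also 0 higher at an unadjusted p under 0.05) and 3 did not pass, with a median of -0.75, where 11.0% of all genes tested were lower. Col5a3, Col5a2 and Col6a3, chains of collagens V and VI, had the smallest p-values. Col5a2 fell by 0.92 (SE 0.07) and Col5a3 by 1.75 (SE 0.12). Col6a3 fell by 1.43 (SE 0.11), a call that was lost with the mean of its probe sets, of which the other was dim (limma adjusted p = 0.475). The mean log2 signal of Col1a1, Col1a2 and Col3a1, the main fibrillar chains, was 13.84, 13.87 and 14.02 in mucosa and 13.14, 13.11 and 13.07 in peri-implant tissue. It was lower by 0.80, from 13.91 to 13.11.

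Each enzyme was also expressed relative to that fibrillar collagen mean. P4ha1, which fell by 0.44 on its own, was higher by 0.36 relative to collagen, and Serpinh1 by 0.56. Lox was higher by 1.38, Loxl1 by 1.44, P4ha3 by 1.22, Plod1 by 0.85 and Plod3 by 0.39. Without regard to direction, 8 of the 10 genes did not overlap between groups, against 86.3% of all genes tested. For the 7 genes just named all peri-implant arrays lay higher, but 84.8% of all genes tested were likewise higher relative to collagen without overlap, so both counts are near the background. P4ha2 and Plod2 overlapped, with differences of 0.15 and 0.21 (exact permutation p = 0.3 and 0.2). Loxl2 alone among the 10 lay lower relative to collagen, by -0.91, a direction without overlap that 1.48% of all genes tested showed. Its groups were only just separated, with peri-implant array 1 at -5.88 and mucosal array 3 at -5.81. The peri-implant SD of this difference was 0.64. The exact permutation p was 0.1 for each of the 8 genes without overlap, the smallest it can give, and 0.125 adjusted over the 10 genes.

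The genes for folding and export partners of these enzymes showed no common direction. Of 14 tested folding and export partners 2 were higher, 2 lower and 10 did not pass, with a median of 0.04. These counts are near the shares over all genes tested, 15.2% higher and 11.0% lower. P3h4, a partner of Plod1 in the lysyl hydroxylase complex, fell by 0.82 (SE 0.13, limma adjusted p = 5.33e-04). Of its 4 other probe sets 3 were also called lower. Sec24d, a coat protein of the vesicles that export procollagen, fell by 0.52 (SE 0.10, limma adjusted p = 0.00204). Mia3 (TANGO1), which loads procollagen into these vesicles, rose by 0.28 (SE 0.08, limma adjusted p = 0.0181). Ppib, the prolyl isomerase cyclophilin B, rose by 0.24 (SE 0.08, limma adjusted p = 0.0349). The calls for Mia3 and Ppib were lost in 6 and 8 of 15 alternatives. When the probe sets of Mia3 were averaged, its difference was 0.10 (limma adjusted p = 0.625), the other probe set being at -0.09. Mia3 also lost its call without peri-implant array 2 or 3 or mucosal array 1 (limma adjusted p = 0.0612, 0.0680 and 0.0805). Ppib lost its call without any single array other than mucosal array 3, with limma adjusted p-values of 0.0677 to 0.112 for those 5 arrays.

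Of the procollagen processing genes, only the proteinase Bmp1 and its enhancer Pcolce had probe sets of their own. Bmp1 was at 9.00 ± 0.07 against 9.03 ± 0.09 and Pcolce at 9.45 ± 0.06 against 9.36 ± 0.15 (SD, n = 3 each). Neither passed (limma adjusted p = 0.903 and 0.601). Of the genes for copper and ascorbate supply, 4 were tested and 0 passed in limma, also with 0 at an unadjusted p under 0.05. Atp7a, the pump that delivers copper to secreted enzymes such as Lox, was at 10.21 ± 0.14 against 10.31 ± 0.06 (SD, n = 3 each).

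Elastin is the other substrate side of Lox and Loxl1 and was listed with its scaffold genes. The list also holds Fmod, a proteoglycan of collagen fibrils, so the counts and median are not those of elastic fibre genes alone. Of 5 tested, 2 were higher, 0 lower (limma, also 0 at an unadjusted p under 0.05) and 3 did not pass. The median was 0.58. Among all genes tested, 15.2% were higher and 11.0% lower. Of the 3 that did not pass, Eln and Efemp2 lay higher and Fbn1 lower, by 0.24 with overlapping groups. Fbln5 was too dim to be tested. Fmod, fibromodulin, a proteoglycan that binds collagen fibrils and Lox, was at 7.91, 7.97 and 7.22 in mucosa and at 9.59, 9.36 and 9.58 in peri-implant tissue. It rose by 1.81 (SE 0.19, limma adjusted p = 1.49e-05), or 3.50-fold, and the groups were far apart. Ltbp4, which takes part in elastic fibre assembly, rose by 0.58 (SE 0.11, limma adjusted p = 0.00165). Eln, elastin itself, was dim in mucosa at 5.52 ± 0.55 and stood at 6.26 ± 0.17 in peri-implant tissue (SD, n = 3 each; limma adjusted p = 0.232).

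**Figure D4:**
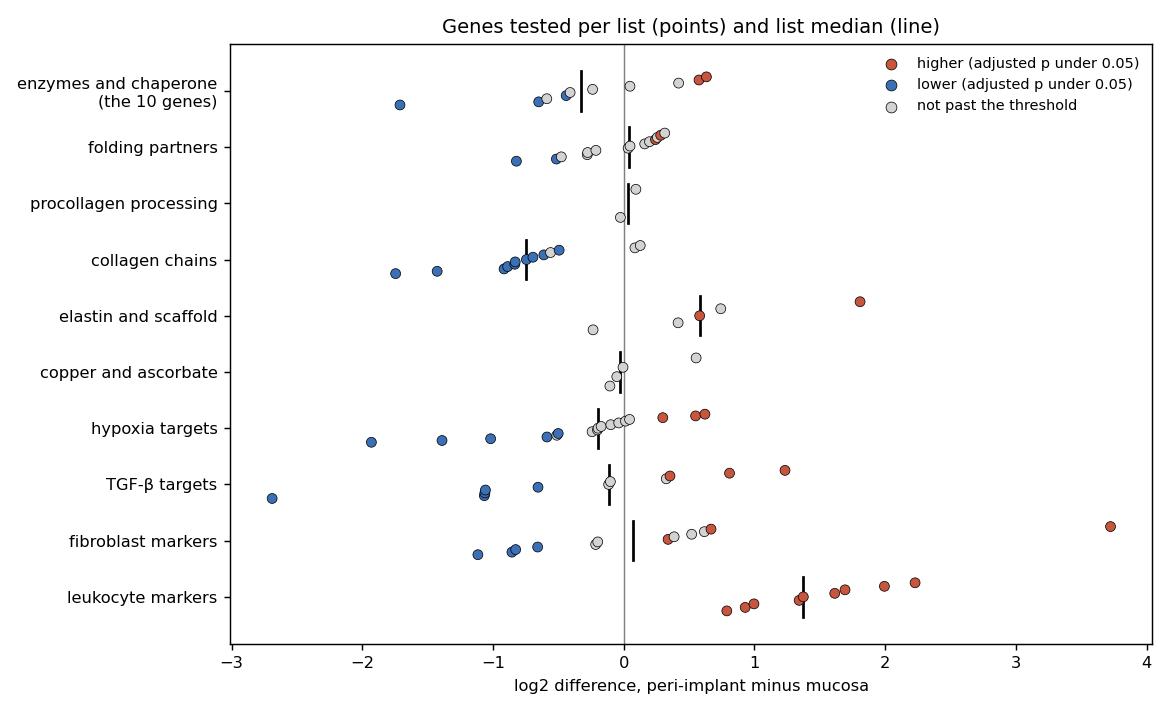
The horizontal axis is the log2 difference, peri-implant minus mucosa, of each tested gene in a list (points), coloured by its limma call, with the list median as a line. The collagen chains lie mostly below 0 (median -0.75), the leukocyte markers all lie above 0 (median 1.37), and the 10 enzymes and chaperone genes spread on both sides.

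Several of the 10 genes are known targets of hypoxia-inducible factors and of TGF-β, so both lists are given beside them. Of 17 hypoxia targets 5 were lower, 3 higher and 9 did not pass, with a median of -0.20. Bnip3, a mitophagy receptor, fell by 1.39 (SE 0.07), Ndrg1 by 1.02 (SE 0.07) and the vasodilator peptide Adm by 1.93 (SE 0.15). In the opposite direction, Vegfa, the vascular growth factor, rose by 0.62 (SE 0.10), the glycolytic regulator Pfkfb3 by 0.55 (SE 0.10) and the glucose transporter Slc2a1 by 0.30 (SE 0.08). With the mean of its probe sets, of which both others were dim, Pfkfb3 was at -0.12 (limma adjusted p = 0.836). The call for Slc2a1 was lost without peri-implant array 3 (limma adjusted p = 0.0546) or mucosal array 2 (limma adjusted p = 0.0558). Of 11 TGF-β targets and ligands 5 were lower, 3 higher and 3 did not pass, with a median of -0.12. Tnc, Postn and Tgfbi, matrix proteins of wounds, fell by 2.69, 1.06 and 1.07, while the ligand Tgfb3 rose by 0.81, Ltbp2 by 1.23 and Fn1, fibronectin, by 0.35. The call for Fn1 was lost with arrays centred on their medians (limma adjusted p = 0.0578) and without the variance trend (limma adjusted p = 0.0510). Over all genes tested, 15.2% were higher and 11.0% lower.

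Signals of cell type markers are given beside these results. Summed linear signal of 12 fibroblast markers was 18275 to 19150 on the peri-implant arrays and 23930 to 27090 on the mucosal arrays, with 3 markers higher, 4 lower and 5 not past the threshold. The median difference of this list was 0.07. Pdgfra, Pdgfrb, Thy1 and Lum, the brightest marker, fell by 0.83, 1.12, 0.66 and 0.86, while Dcn, Dpt and Mfap5 rose by 0.34, 0.67 and 3.72, the last from a dim mucosal level. For 10 leukocyte markers the sums were 28020 to 30143 against 10833 to 11345, with 9 of 9 tested markers higher. For 7 epithelial markers they were 203895 to 270036 against 234787 to 317660, with 2 higher and 2 lower, and for 7 endothelial markers 1307 to 1340 against 880 to 1131, with 1 higher. Of 8 bone and cartilage markers 5 were tested, 1 higher and 2 lower, with sums of 4508 to 4581 against 4528 to 5118. These sums come mostly from Acp5, at 11.70 against 11.68 on the log2 scale. Alpl rose by 1.92 from a dim mucosal level, while Ibsp and Ctsk fell by 1.49 and 0.51. Bglap, too dim on average to be tested, was at 6.96 in peri-implant tissue and 2.72 in mucosa. Smooth muscle and pericyte markers had 1 higher and 1 lower of 5 tested, with sums of 651 to 818 against 872 to 921. Skeletal muscle markers had 1 higher of 2 tested, with sums of 3695 to 4157 against 3818 to 3975 that come mostly from Myh1. The sums thus rest largely on 1 of 5 Myh1 probe sets, at 11.78 against 11.79. Markers of this list that were not tested were too dim on average. Mb rose by 4.10 from a dim mucosal level. Acta1, too dim on average to be tested, was at 2.87 in peri-implant tissue and 6.93 in mucosa. The Schwann cell list had 1 tested gene, which was lower, with sums of 481 to 596 against 829 to 1027. No marker was listed at 0 on any array. The dim markers were Phex in the bone list, Myh2 and Myh4 of skeletal muscle, Cnn1 of smooth muscle, and S100b and Sox10 of Schwann cells, which lay below 5.90 on all 6 arrays. No epithelial, fibroblast, leukocyte or endothelial marker was below that level on all arrays. For the marker counts, the shares over all genes tested were 15.2% higher and 11.0% lower. The part of these marker signals in the differences of the 10 genes was not tested.

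The genes whose 6 values, each centred on the gene's own mean, lay nearest to those of Loxl1, the largest rise among the probe sets used, were Ppil1, Itm2c and Timm21, at root mean square distances of 0.05, 0.06 and 0.06 log2 units over 6 arrays and 10575 other genes. Loxl1 did not rank above Lox in every setting, since Lox had the larger rise when its probe sets were averaged (0.70), without peri-implant array 2 (0.65) and without mucosal array 2 (0.57). Those nearest to Loxl2, the largest fall, were Gipc2, Nfatc1 and Nckap5l, at 0.22, 0.25 and 0.26. The genes nearest to Loxl1 differed between groups by 0.57 to 0.69, and those nearest to Loxl2 by -1.82 to -1.29.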

How the data were processed

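Total RNA from 6 samples was labelled with biotin by a 3′ amplification kit, per the labels' protocols, and each sample has its own array. The deposited table holds log2 signals of 31099 probe sets, 57 of them controls. On the linear scale the mean trimmed by 2% at each end was 500.2 on every array, which points to a scaling of each array before deposit. How the signals were computed from the probes is not given in the sources used here. Array number limits the precision.

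Values were analysed as deposited, without a pseudocount. Probe sets with a mean above the 40th percentile (5.68), 18625 in all, were fitted with limma 3.58.1 in R 4.3.3 (lmFit, eBayes with variance trend, two-sided), with Benjamini-Hochberg adjustment over all of them and a threshold of 0.05. The fit was tested on simulated data. Differences are peri-implant minus mucosa on the log2 scale, with the SE of the fit.

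Symbols came from the platform's annotation, which named 1 gene for 20826 probe sets, several for 436 and none for 9780. All 10 genes matched the RefSeq annotation of GRCr8 by gene number. Of 150 entries in 8 pathway and 8 cell type lists, 134 matched the array. The 10 genes and the lists were chosen with earlier results of these data known. Named from each pathway list were up to 3 called genes with the smallest p per direction. P4hb, Eln, Efemp2, Fbn1, Fbln5, Loxl3, Bmp1, Pcolce, Atp7a, and the fibroblast, bone and skeletal muscle markers were named after their values were seen.

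Arrays were not paired, because the labels do not say whether same-numbered arrays come from the same rat. Deviations of same-numbered arrays from their group means correlated at -0.08 to 0.03. These values cannot settle it, since noise of single arrays could hide a shared rat. Median signal was 6.62 to 6.78 per array.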

Additional observations from a re-analysis of the deposited data

How the results depend on the processing

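Under each of 9 other settings and with each array left out in turn, Lox and P4ha1 kept direction and call. The count of genes called higher, 2 as reported, was 1 under quantile normalisation, with arrays centred on their medians, without a filter and with the replicate block, and 1 to 2 with an array left out. The count called lower, 3 as reported, was 6 under quantile normalisation, 1 with the mean of all probe sets (which averages in dim ones) and 3 to 5 with an array left out. Among 66 tested pathway genes, 10 were higher as reported, 6 with arrays centred on their medians, 6 without the variance trend, and 7 to 12 with an array left out. The 22 lower were 20 to 23 under all alternatives run for these lists, which did not include the mean of all probe sets. Differences changed sign for Plod1 without peri-implant array 2 (difference -1.39e-04, and up to 0.091 with another array left out), and with the mean of all probe sets for P4ha2 (0.022) and Pfkfb3 (-0.12). The replicate block changed no other call among the 10 genes. Pairs of paralogs without overlap, 5 of 9, numbered 4 to 7, and genes without overlap relative to collagen, 8 of 10, numbered 6 to 10. The planned pseudocount applied to linear values and was not run.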
